A study of Mus musculus with 22 samples.

Results

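Of the 25471 genes counted in mouse ulna, 10 are described here, the VEGF and angiopoietin ligand and receptor genes Vegfa, Vegfb, Vegfc, Pgf, Kdr, Flt1, Angpt1, Angpt2, Tek and Nrp1. They were chosen by name, not by any measured value, though with earlier results of these data known. All 10 were found in the count table and passed the filter on low counts. Bone came from the middle of the ulna, which runs along the forearm, in 11 mice, each of which had its right limb loaded and its left limb left without load. 7 mice were wildtype (WT; numbers 685, 686, 687, 690, 692, 694 and 699) and 4 were labelled as conditional knockouts of Tlr4, a receptor of innate immunity (CKO; 688, 691, 693 and 698); the series title speaks of its signalling in osteoblasts. The labels used here do not state the Cre driver, the deleted exons, the strain, age or sex, the loading regime, or the time between loading and harvest. RNA came from whole bone pieces, so marrow, vessels and attached muscle are part of each sample. In such bulk RNA, fewer cells of a type and less RNA per cell cannot be told apart.

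VEGF-A is the main growth signal of blood vessels, and acts through the receptor tyrosine kinase VEGFR2, the product of Kdr. VEGFR1, the product of Flt1, binds VEGF-A, VEGF-B and placental growth factor (Pgf) and holds back much of the VEGF-A signal, while neuropilin 1 (Nrp1) is a co-receptor and VEGF-C acts mainly on lymphatic vessels. Angiopoietin 1 (Angpt1) steadies mature vessels through the endothelial receptor Tie2 (Tek), and angiopoietin 2 (Angpt2), released by activated endothelium, acts on the same receptor and often opposes it. In bone, vessel growth and bone formation are coupled, and mechanical loading of bone is a setting in which VEGF has long been studied.

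The libraries held 21999891 to 42833729 counts. Tlr4 itself was at 32.5 ± 4.89 CPM (each library's counts scaled to a common total; SD, n = 7) without load and 33.4 ± 4.82 (n = 7) with load in WT mice, and at 30.1 ± 3.43 (n = 4) and 29.2 ± 3.16 (n = 4) in CKO mice, so that the gene count does not separate the genotypes. Another gene, Ltbp2, sorted the libraries by genotype, with CKO levels of 205 to 344 CPM and WT levels of 26.5 to 73.5 CPM, but for the right limbs of 2 mice. The loaded WT library of 686 held 380 CPM of it and the loaded CKO library of 688 held 38.4 CPM, both against their labels. The CKO loading, interaction and genotype values described here are therefore also given without mice 686 and 688 where that moved them by over 1.5 times. All 10 osteocyte and all 12 osteoblast markers were present in every library, led by Sost and Dmp1 and by Col1a1 and Col1a2. Skeletal muscle genes, led by Ttn, took 11.2% ± 3.63 of the counts without load and 10.9% ± 3.55 with load in WT mice, and 10.2% ± 6.08 and 14.7% ± 3.58 in CKO mice.

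The 250 bases before the transcription start, the part of a promoter nearest the gene, are shown for the main VEGF ligand, for the ligand and the receptor whose levels later moved most closely with muscle (Vegfb and Flt1), and for the signalling receptor Kdr. The sequences are from RefSeq on GRCm38.p6, read 5′ to 3′ on the gene's own strand, which for all 4 is the minus strand. Capitals mark the letters ACGTG or GCGTG, the core bound by hypoxia-inducible factors (HIF), and GCGTGGGCG or GCGGGGGCG, letters of a site for early growth response (EGR) factors, which many stimuli induce, each on either strand. GCGTGGGCG holds a GCGTG, but no HIF core lay inside an EGR match in these windows. The Vegfa window is chr17:46032378-46032627, the Vegfb window chr19:6987652-6987901, the Flt1 window chr5:147726012-147726261 and the Kdr window chr5:75978456-75978705.
Vegfa: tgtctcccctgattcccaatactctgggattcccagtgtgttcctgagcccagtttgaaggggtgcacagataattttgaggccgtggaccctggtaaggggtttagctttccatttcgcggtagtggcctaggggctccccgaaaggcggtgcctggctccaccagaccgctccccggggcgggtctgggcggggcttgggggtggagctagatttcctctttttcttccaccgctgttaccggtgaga
Vegfb: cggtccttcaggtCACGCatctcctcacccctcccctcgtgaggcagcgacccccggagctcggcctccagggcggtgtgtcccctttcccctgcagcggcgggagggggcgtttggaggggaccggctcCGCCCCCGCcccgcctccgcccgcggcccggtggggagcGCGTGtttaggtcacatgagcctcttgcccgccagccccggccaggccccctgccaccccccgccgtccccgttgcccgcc
Flt1: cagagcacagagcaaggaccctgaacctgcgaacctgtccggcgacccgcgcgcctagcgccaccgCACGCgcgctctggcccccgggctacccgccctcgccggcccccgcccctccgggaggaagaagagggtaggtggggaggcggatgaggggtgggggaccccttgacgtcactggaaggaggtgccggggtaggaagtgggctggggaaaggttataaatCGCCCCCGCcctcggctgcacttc
Kdr: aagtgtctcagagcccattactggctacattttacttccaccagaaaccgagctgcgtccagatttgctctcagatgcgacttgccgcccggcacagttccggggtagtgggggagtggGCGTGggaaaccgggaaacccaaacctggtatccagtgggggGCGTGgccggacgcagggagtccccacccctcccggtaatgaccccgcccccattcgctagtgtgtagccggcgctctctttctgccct

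The Vegfa window shown held none of these letters. The window of its second start, 7206 bases from the GENCODE start, held 2 HIF cores. The bases just after that second start were not found in a GENCODE transcript of Vegfa, so it may not be a promoter. The same check failed for the Vegfc start. The Flt1 window held an EGR match 24 to 16 bases before the start and a HIF core 184 to 180 bases before it. In the Vegfb window the EGR match lay 120 to 112 bases before the start, with HIF cores at 81 to 77 and 237 to 233 bases. Kdr had HIF cores at 89 to 85 and 131 to 127 bases. RefSeq windows were matched for 8 of the 10 genes, all but Angpt1 and Angpt2, 10 windows in all because Vegfa and Pgf have a second start. A HIF core stood in 6 of these 10 windows, against 38.6% of all 32817 windows of the same length, and an EGR match in 2 of 10, against 3.06%. The second Vegfa window is among these 6. The AP-1 letters TGANTCA, found in 6.75% of all windows, were in none of the 10.

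Per length of exon, the ligands Vegfa and Vegfb stood highest and Pgf lowest. In WT non-loaded ulnae (n = 7) the levels, in CPM per kilobase of exon with SD, were 17.2 ± 2.42 for Vegfa and 16.1 ± 5.52 for Vegfb. The receptors and Angpt1 followed as a middle group, with Nrp1 at 6.80 ± 0.752, Angpt1 at 5.83 ± 1.11, Flt1 at 5.68 ± 1.77, Kdr at 5.01 ± 0.548 and Tek at 4.66 ± 0.905 CPM per kilobase. Vegfc at 1.67 ± 0.468, Angpt2 at 1.03 ± 0.232 and Pgf at 0.963 ± 0.405 CPM per kilobase formed the low group. The steps between these 3 groups held in every library: Vegfb was above Nrp1 in 22 of 22, by a median ratio of 2.43, and Tek above Vegfc in 22 of 22, by 2.93. Within the groups neighbours changed places. Vegfa was above Vegfb in 13 of 22 libraries, Angpt1 above Flt1 in 10, and Flt1 above Kdr in 16.

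**Figure D1:**
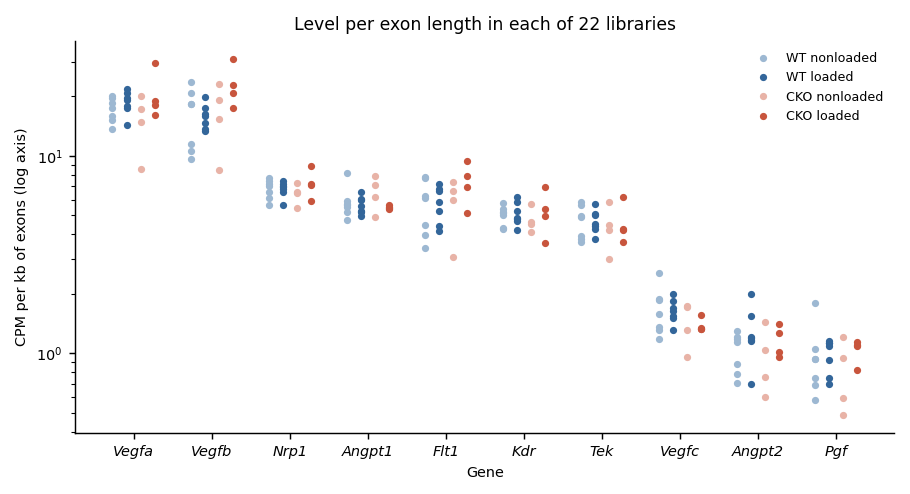
Level of each gene in CPM per kilobase of exons (log axis) in the 22 libraries, 1 point per library, coloured by group and ordered by the WT non-loaded mean. Vegfa and Vegfb lie above the middle group of receptors and Angpt1 in every library, and Vegfc, Angpt2 and Pgf lie below it.

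Loading was asked of each gene first in WT mice, then in CKO mice, and then as the mean of both effects. None of the 10 genes passed the threshold, an adjusted p under 0.05, in any of these comparisons (edgeR quasi-likelihood test, adjusted by Benjamini-Hochberg over 18793 genes). Few genes did: 0.00532% of those tested in WT, 0.016% in CKO and 0.0905% over both genotypes. At an unadjusted p under 0.05, the genes followed counted 0 of 10 in WT, where 2.34% of all genes did, 1 of 10 in CKO, where 3.6% did, and 1 of 10 over both, where 3.17% did. That 1 gene was Vegfa in each case. These tests did not pair the limbs of a mouse. With the mouse as a block, 2, 5 and 11 genes of the whole table were called in place of 1, 3 and 17, and again 0 of the 10. For each of the 10 genes, the range of loaded values overlapped that of non-loaded values in both genotypes, and the ranges of the genotypes overlapped in both limbs. The share of all genes with overlapping ranges was not counted, so this overlap is not particular to the 10 genes.

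**Figure D2:**
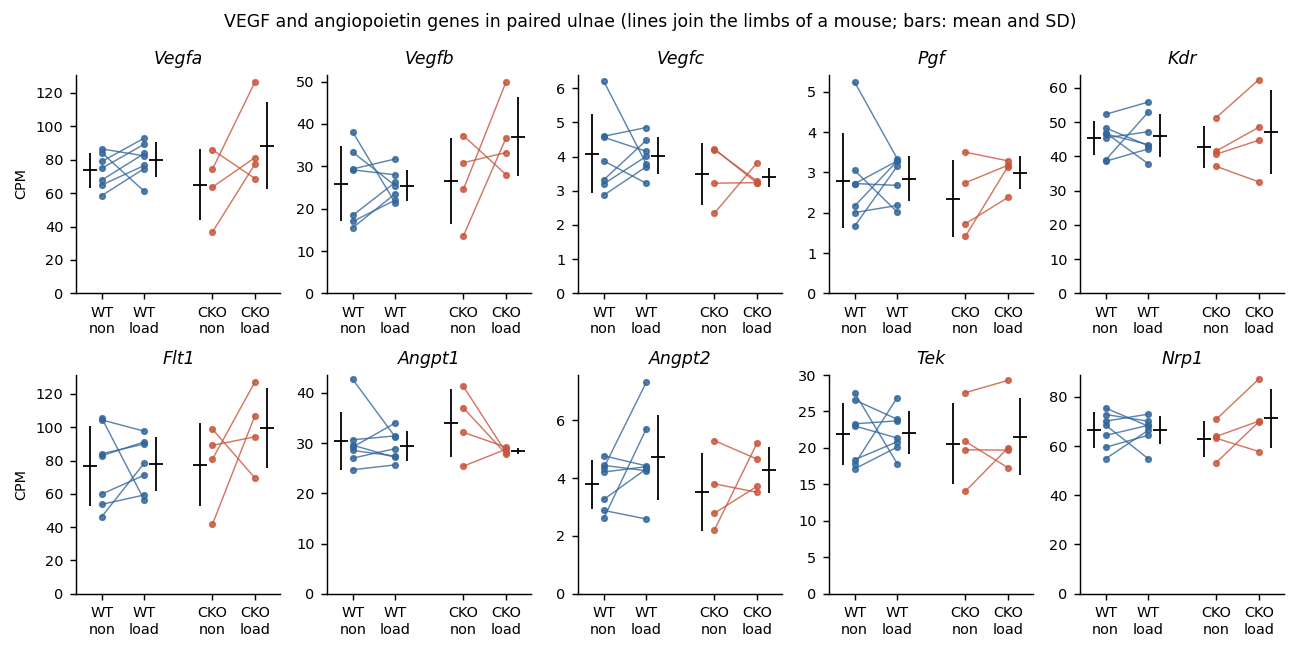
CPM of each gene in the non-loaded and loaded ulna of 7 WT mice (blue) and 4 CKO mice (red), with lines joining the limbs of a mouse and black bars giving mean and SD. Lines run both ways in every panel, and the ranges of loaded and non-loaded limbs overlap for all 10 genes. The share of all genes with such overlap was not counted.

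Among the ligands, Vegfa (ENSMUSG00000023951; GRCm38 chromosome 17, 46016993 to 46032369, minus strand) was the only one with an unadjusted p under 0.05 for loading. In WT mice it was at 58.5, 74.8 and 86.4 CPM (lowest, median and highest of 7) in non-loaded and at 61.0, 82.2 and 92.9 CPM in loaded ulnae. In 5 of 7 WT mice the loaded side held more, with 692 and 694 the exceptions, and the fitted log2 fold change was 0.12 ± 0.16 (SE; edgeR adjusted p = 0.99979). The 95% interval of the WT fold ran from 0.864 to 1.37, so a 2-fold rise lies outside it.

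In the CKO mice Vegfa went from 85.9 to 68.7 CPM in 688, from 36.6 to 77.3 in 691, from 63.6 to 81.2 in 693 and from 74.2 to 126 in 698. Mouse 688, whose loaded library went against its label, was the only one with less Vegfa in the loaded limb. The log2 fold change was 0.44 ± 0.21 (edgeR adjusted p = 0.739), and 0.71 ± 0.24 (adjusted p = 0.366) without mice 686 and 688. Over both genotypes it was 0.28 ± 0.13 (edgeR adjusted p = 0.999), and 8 of 11 mice had more in the limb under load.

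Vegfb (ENSMUSG00000024962; chromosome 19, 6982473 to 6987651, minus strand), whose product binds VEGFR1 and not VEGFR2, varied more than Vegfa between mice. WT values were 15.5, 29.2 and 38.1 CPM (lowest, median, highest) without load and 21.3, 25.4 and 31.7 CPM with load. The 2 sets centred on nearly the same level, at a log2 fold change of -0.02 ± 0.21 (edgeR adjusted p = 0.99979), and 4 of 7 WT mice had more in the loaded limb. In the CKO mice it went from 37.3 to 28.1 CPM in 688, from 13.6 to 36.7 in 691, from 30.9 to 33.2 in 693 and from 24.6 to 49.9 in 698. Its CKO log2 fold change was 0.48 ± 0.28 (adjusted p = 0.739), and 0.80 ± 0.32 (adjusted p = 0.366) without mice 686 and 688. Without 691 or without 698, the mice with the largest rises, it was 0.28.

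Pgf (ENSMUSG00000004791; chromosome 12, 85166635 to 85177790, minus strand) and Vegfc (ENSMUSG00000031520; chromosome 8, 54077606 to 54187096, plus strand) were scarce, with 35 to 183 and 58 to 217 counts per library. Pgf was at 1.67, 2.72 and 5.24 CPM in WT non-loaded and 2.02, 3.16 and 3.34 CPM in WT loaded ulnae, a log2 fold change of 0.02 ± 0.23 (edgeR adjusted p = 0.99979). In CKO mice Pgf went from 1.41 to 3.14 CPM in 688, from 1.73 to 2.38 in 691, from 2.74 to 3.18 in 693 and from 3.50 to 3.29 in 698. The log2 fold change of 0.35 ± 0.31 (adjusted p = 0.739) was 0.16 ± 0.36 without mice 686 and 688 and 0.57 ± 0.35 without 698. Vegfc was at 2.87, 3.87 and 6.21 CPM in WT non-loaded and 3.22, 4.01 and 4.85 CPM in WT loaded ulnae, a log2 fold change of -0.03 ± 0.16 (edgeR adjusted p = 0.99979). Its CKO value was -0.05 ± 0.22 (adjusted p = 0.941), with 2 of 4 mice higher in each limb, and -0.25 without mice 686 and 688.

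Of the receptors, Kdr (ENSMUSG00000062960; chromosome 5, 75932827 to 75978458, minus strand) and Nrp1 (ENSMUSG00000025810; chromosome 8, 128358604 to 128503363, plus strand) were the steadiest between mice. Kdr was at 38.6, 46.6 and 52.3 CPM in WT non-loaded and 37.8, 43.4 and 55.8 CPM in WT loaded ulnae, and Nrp1 at 54.9, 68.5 and 75.4 against 54.9, 68.1 and 73.0 CPM. The WT log2 fold changes were 0.03 ± 0.12 for Kdr and -0.0014 ± 0.09 for Nrp1 (edgeR adjusted p = 0.99979 for each). Nrp1 had the narrowest WT interval of the 10 genes, a fold between 0.872 and 1.14 at 95%. In CKO mice the values were 0.14 ± 0.16 for Kdr (adjusted p = 0.760) and 0.18 ± 0.12 for Nrp1 (adjusted p = 0.739), with more of both genes on the loaded side in 3 of 4 mice and less in 688. Without mice 686 and 688 they were 0.23 ± 0.17 and 0.28 ± 0.15 (edgeR adjusted p = 0.443 and 0.366), and without 698 the Kdr value was 0.088.

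Flt1 (ENSMUSG00000029648; chromosome 5, 147561604 to 147726011, minus strand) spread more widely than Kdr. WT values were 46.3, 82.9 and 106 CPM in non-loaded and 56.1, 78.5 and 97.6 CPM in loaded ulnae, at a log2 fold change of 0.02 ± 0.21 (edgeR adjusted p = 0.99979). In the CKO mice it went from 98.9 to 69.5 CPM in 688, from 41.6 to 107 in 691, from 89.1 to 94.2 in 693 and from 80.8 to 127 in 698. The fitted value was 0.36 ± 0.28 (adjusted p = 0.739), 0.64 ± 0.32 without mice 686 and 688, and 0.13 ± 0.29 without 691. The ratio of Flt1 to Kdr per kilobase of exon was 1.13 ± 0.313 without load and 1.13 ± 0.193 with load in WT mice, and 1.24 ± 0.486 and 1.42 ± 0.0460 in CKO mice. Loaded limbs had the higher ratio in 5 of 7 WT and 2 of 4 CKO mice.

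Neither angiopoietin gene passed for loading. Angpt1 (ENSMUSG00000022309; chromosome 15, 42424723 to 42676977, minus strand) was at 24.7, 29.2 and 42.7 CPM in WT non-loaded and 25.7, 28.9 and 34.0 CPM in WT loaded ulnae, a log2 fold change of -0.05 ± 0.11 (edgeR adjusted p = 0.99979). More of it was in the loaded limb in 4 of 7 WT mice, and the value was 0.04 ± 0.10 without mouse 699. In the CKO mice it went from 25.4 to 28.8 CPM in 688, from 41.3 to 28.2 in 691, from 32.2 to 29.2 in 693 and from 37.0 to 27.9 in 698, so that the 4 loaded ulnae lay between 27.9 and 29.2 CPM and the non-loaded ones between 25.4 and 41.3 CPM. The CKO value was -0.25 ± 0.15 (adjusted p = 0.739), -0.37 ± 0.15 (adjusted p = 0.366) without mice 686 and 688, and -0.13 ± 0.17 without 691. An antisense gene, Gm17473, shares exon sequence with Angpt1, but it had 376 counts over all libraries together, against 604 to 1652 counts for Angpt1 in each.

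Angpt2 (ENSMUSG00000031465; chromosome 8, 18690263 to 18741562, minus strand, inside the oppositely directed gene Mcph1 and sharing no exon with it) was at 2.61, 4.21 and 4.78 CPM in WT non-loaded and 2.59, 4.40 and 7.32 CPM in WT loaded ulnae. Its WT log2 fold change of 0.32 ± 0.21 was the largest of the 10 in size (edgeR adjusted p = 0.99979), but 3 of 7 WT mice had less in the loaded limb and the value was 0.20 ± 0.23 without mouse 699. In CKO mice it was 0.28 ± 0.28 (adjusted p = 0.744), and 0.0075 ± 0.31 without mouse 691, which went from 2.20 to 5.21 CPM, but 0.52 ± 0.31 without 698. The ratio of Angpt2 to Angpt1 per kilobase of exon, often read as a balance of vessel growth against rest, was 0.183 ± 0.0536 without load and 0.231 ± 0.0817 with load in WT mice, and 0.150 ± 0.0536 and 0.212 ± 0.0434 in CKO mice. Loaded limbs had the higher ratio in 4 of 7 WT and 4 of 4 CKO mice. In CKO mice 693 and 698, though, Angpt2 itself was lower in the loaded limb, by -0.11 and -0.18 in log2 CPM. Angpt1 was lower still there, by -0.14 and -0.41.

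Their receptor gene Tek (ENSMUSG00000006386; chromosome 4, 94739289 to 94874976, plus strand) lay near 0 in both genotypes. It was at 17.1, 23.0 and 27.6 CPM in WT non-loaded and 17.8, 21.4 and 26.9 CPM in WT loaded ulnae, at a log2 fold change of 0.01 ± 0.15 (edgeR adjusted p = 0.99979). The CKO value was 0.07 ± 0.20 (adjusted p = 0.907), with 2 of 4 mice higher in the loaded limb, and 0.17 ± 0.24 (adjusted p = 0.690) without mice 686 and 688.

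Whether loading acted differently in the genotypes was asked by the interaction, the CKO effect minus the WT effect. None of the 10 genes passed, nor did any gene tested (0% of all genes; edgeR), and at an unadjusted p under 0.05 the count was 0 of 10 against 2.6% of all genes. The interaction was 0.32 ± 0.26 on the log2 scale for Vegfa, 0.50 ± 0.36 for Vegfb, 0.34 ± 0.35 for Flt1 and -0.21 ± 0.18 for Angpt1 (edgeR adjusted p = 0.697, 0.697, 0.704 and 0.697). Their 95% intervals ran from -0.23 to 0.87, from -0.24 to 1.24, from -0.38 to 1.06 and from -0.59 to 0.17, so each leaves room for effects of either sign. Single mice moved these values by over 1.5 times. Without mice 686 and 688 they were 0.62 ± 0.29, 0.86 ± 0.39, 0.65 ± 0.39 and -0.30 ± 0.18 (edgeR adjusted p = 0.365, 0.365, 0.374 and 0.374). Without 691 they were 0.20, 0.30, 0.11 and -0.08, and without 698 they were 0.18, 0.30, 0.24 and -0.14. Without 694 the Flt1 value was 0.19, and without 688 alone the 4 values were 0.60, 0.83, 0.63 and -0.32.

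Between genotypes, CKO against WT was compared in each limb. In non-loaded ulnae 0 of 10 passed, against 0% of all genes, and 0 of 10 had an unadjusted p under 0.05, against 3.04%. The values there ran from -0.26 ± 0.27 for Pgf to 0.16 ± 0.13 for Angpt1 (edgeR adjusted p = 0.976 for each). Both ends moved with single mice: Pgf was at -0.034 without 685, -0.088 without 688, -0.14 without both 686 and 688, -0.13 without 691 and -0.53 without 698, and Angpt1 at 0.049 without 691, 0.11 without 686 or without 698, 0.27 without 688 and 0.28 without 699. In loaded ulnae 0 of 10 passed, against 0% of all genes, and 1 of 10 had an unadjusted p under 0.05, against 6.81%. That gene was Vegfb, at 0.54 ± 0.25 (edgeR adjusted p = 0.601), with CKO values of 28.1 to 49.9 CPM beside WT values of 21.3 to 31.7 CPM. It was 0.72 ± 0.27 (adjusted p = 0.301) without mice 686 and 688 and 0.18 ± 0.13 (adjusted p = 0.911) with muscle and marrow scores in the fit. At the other end was Vegfc, at -0.25 ± 0.19 (adjusted p = 0.642).

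The 10 genes did not all rank with the same tissue score across libraries. A muscle score, a marrow score (red cell, neutrophil and B cell genes) and an endothelial score were computed as the mean standardised log2 CPM of fixed marker lists that hold none of the 10 genes. Over the 22 libraries Vegfb and Flt1 ranked with the muscle score at Spearman rho of 0.938 and 0.842, and Vegfa at 0.743. Tek and Kdr, the receptor genes of the vessel wall, ranked with the endothelial score at 0.866 and 0.843, and Angpt2 at 0.715. Angpt1 ranked with the marrow score at 0.743 and against the muscle score at -0.633. By rank Nrp1 was closest to the endothelial score, at 0.582, beside -0.506 for marrow. By Pearson r it was closer to the marrow score, at -0.724 beside 0.652. The same held for its limb differences, at r = -0.897 with marrow and 0.775 with endothelium. Vegfc and Pgf followed none of the 3 scores beyond a rho of 0.346 in size. These are descriptions over 22 libraries from 11 mice that share CPM scaling, with no test. How many of all genes rank as closely with a score was not counted.

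**Figure D3:**
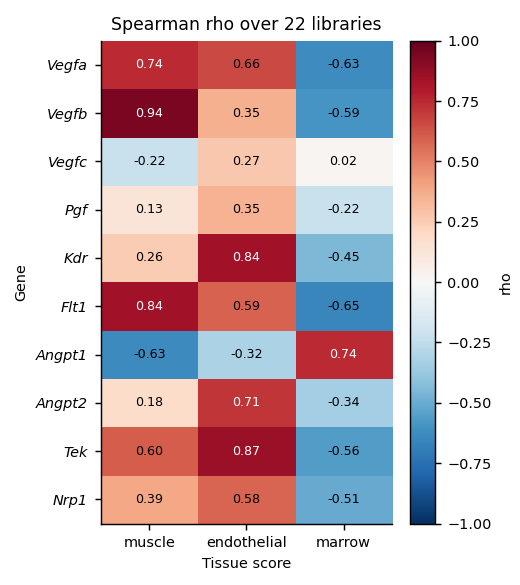
Spearman rho over 22 libraries between the log2 CPM of each gene (rows) and 3 tissue scores (columns), with red for positive and blue for negative values. Vegfb and Flt1 are highest with muscle (0.938 and 0.842), Tek and Kdr with endothelium (0.866 and 0.843), and Angpt1 with marrow (0.743).

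The difference between the limbs of a mouse was compared with the scores in the same way. Over 11 mice the limb difference in log2 CPM went with the limb difference of the muscle score at Pearson r = 0.946 for Flt1, 0.938 for Vegfb and 0.910 for Vegfa. Without the mice farthest from the middle of the score, 694 and 691, r was 0.851, 0.866 and 0.759. Against the marrow score r was -0.924 for Flt1, -0.825 for Vegfb and -0.896 for Vegfa. Without 691 and 698 these were -0.881, -0.620 and -0.778. With the endothelial score r was 0.861, 0.684 and 0.696, and 0.873, 0.791 and 0.811 without 694 and 699. By rank the Vegfa difference lay closer to the marrow score (rho = -0.936, beside 0.882 for muscle). For Flt1 and Vegfa these values do not single out muscle. Vegfb moved in the direction of the muscle score in 11 of 11 mice and Flt1 and Vegfa in 10 of 11. The Angpt1 difference went with the marrow score at r = 0.932 (0.863 without 691 and 698), in the same direction in 8 of 11 mice. It went against the muscle score at r = -0.865 and the endothelial score at r = -0.836. By rank those 2 scores lay slightly closer (rho = -0.891 and -0.873, beside 0.864 for marrow), so marrow is not singled out for Angpt1. The Tek difference went with the endothelial score at 0.941 (0.850 without 694 and 699), in the same direction in 7 of 11, but by rank it lay closer to the muscle score (rho = 0.945, beside 0.864). Kdr went with the endothelial score at 0.823 (0.536 without 694 and 699) and against the marrow score at -0.836 (-0.848 without 691 and 698). By rank its difference lay closer to the marrow and muscle scores (rho = -0.827 and 0.773) than to the endothelial score (0.718). Angpt2 went with the endothelial score at r = 0.687 and rho = 0.445. Leaving out mice 686 and 688, a choice made after the data were seen, gave r of 0.952 for Flt1, 0.937 for Vegfb and 0.924 for Vegfa with muscle, 0.972 for Angpt1 with marrow and 0.947 for Tek with endothelium.

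Of the mice, 694 and 691 had the lowest and highest limb difference in muscle score and also in Vegfa, Vegfb and Flt1, while for Vegfc and Pgf the ends were 685 and 688. In 694, with a limb difference of -1.77 in muscle score and 1.68 in marrow score, 1 of the 10 genes, Angpt1, was higher in the loaded limb. In 691, with limb differences of 3.63 in muscle and -1.84 in marrow score, 8 of 10 were higher and Vegfc and Angpt1 lower. In 699, with limb differences of 1.97 in endothelial, 1.45 in muscle and -1.39 in marrow score, 9 of 10 were higher and Angpt1 lower. In 687 also 9 of 10 were higher, with smaller differences of 0.32, 0.56 and 0.27 in these scores, and Pgf was lower. Loaded limbs had the higher muscle score in 3 of 4 CKO mice, by 1.12 ± 1.83 on average (SD, n = 4), and in 4 of 7 WT mice, by -0.04 ± 1.12 (n = 7).

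**Figure D4:**
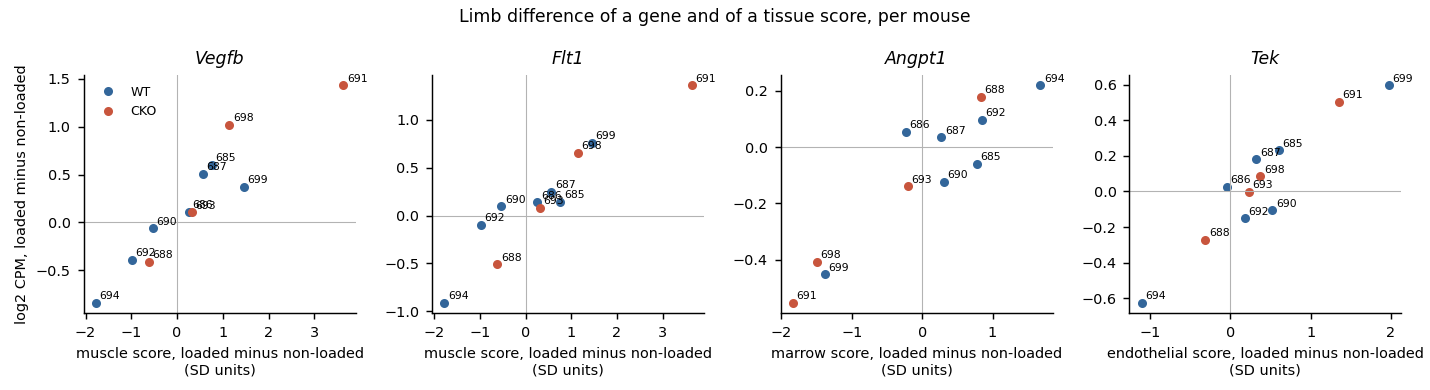
Loaded minus non-loaded log2 CPM of Vegfb, Flt1, Angpt1 and Tek (y axis) against the loaded minus non-loaded tissue score named on the x axis, 1 point per mouse, WT in blue and CKO in red. Points lie close to a rising line in all 4 panels, with r of 0.938, 0.946, 0.932 and 0.941 over 11 mice.

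With the muscle and marrow scores as covariates in the edgeR fit, the CKO loading values of 9 of the 10 genes came nearer to 0 and that of Tek went from 0.07 to -0.20 ± 0.14. Vegfa went from 0.44 to 0.14 ± 0.10, Vegfb from 0.48 to 0.08 ± 0.15, Flt1 from 0.36 to -0.03 ± 0.15 and Angpt1 from -0.25 to -0.06 ± 0.10. The interaction values became -0.01 ± 0.13 for Vegfa, 0.06 ± 0.19 for Vegfb, -0.14 ± 0.19 for Flt1 and 0.04 ± 0.12 for Angpt1. In WT mice Vegfa was at 0.16 ± 0.08 in that fit, beside 0.12 ± 0.16 without the scores. The other WT values also moved away from 0 in size. Flt1 went from 0.02 to 0.11 ± 0.11, Kdr from 0.03 to 0.09 ± 0.11 and Pgf from 0.02 to 0.15 ± 0.24. Angpt2 went from 0.32 to 0.39 ± 0.21. The share of all genes that came nearer to 0 in either genotype was not counted. With the endothelial score instead, the WT value of Angpt2 was 0.11 ± 0.17 and that of Vegfa 0.0034 ± 0.12. The scores are marker levels from the same libraries as the genes, so these fits describe only how much of a difference goes with the scores. Whether tissue content made the differences was not tested. In each of these fits 0 of 10 genes passed.

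**Figure D5:**
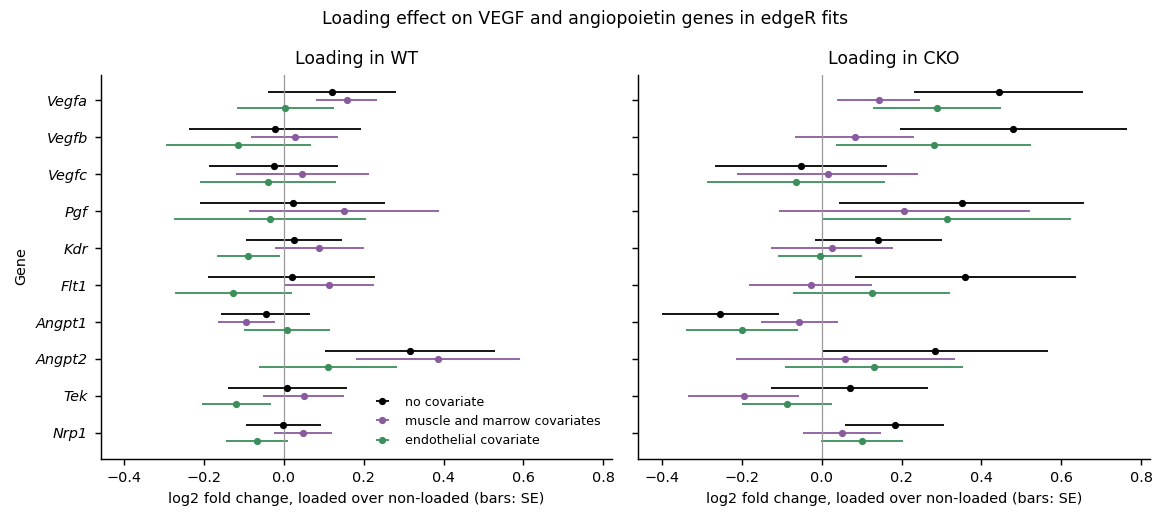
Log2 fold change of loaded over non-loaded ulna with its standard error for each gene in WT (left) and CKO mice (right), from edgeR fits with no covariate (black), with muscle and marrow scores (purple) and with the endothelial score (green). In CKO mice the Vegfa, Vegfb and Flt1 values of 0.44, 0.48 and 0.36 lie at 0.14, 0.08 and -0.03 with muscle and marrow scores in the fit.

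For each of the 10 genes, the genes ranked most alike over the 22 libraries were taken from 13408 genes of at least 1 CPM on average. Flt1 was most like Epas1, which encodes HIF-2 alpha, at rho = 0.976, then Tspan7 (0.962) and Dnaja3 (0.955). Vegfb was most like Cyc1, a subunit of respiratory complex III, at 0.988, then Crat, a mitochondrial carnitine acetyltransferase, and Prr33, both at 0.984. For Tek it was Fgd5, an endothelial exchange factor, at 0.967, with Fez1 at 0.893.

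Kdr was most like Tex261 (0.846), the venous receptor gene Ephb4 (0.835) and Il6st (0.834), and Angpt2 most like Tcaf2 (0.845), the endothelial gene Ecscr (0.842) and Fbn1, which encodes fibrillin 1 (0.842). The matrix-linked genes Ddr2, a collagen receptor, at 0.901, Rai14 at 0.871 and Col6a3 at 0.840 ranked most like Pgf. Nrp1 was near Bcar1 (0.879), Apbb2 (0.854) and again Rai14 (0.853). Vegfa was near Sox7, a transcription factor of endothelium, at 0.889, Ank at 0.881 and Fam185a at 0.879. Angpt1 stood with Tmem123 (0.895), Nelfe (0.880) and Nono (0.871), and Vegfc, with the loosest neighbours, with Tnfrsf11a, which encodes the osteoclast receptor RANK, at 0.739 and Tcf7l2 and Chsy3 at 0.721. Among the 10 genes themselves the closest pair was Vegfb and Flt1, at rho = 0.914, and the most opposed were Vegfa and Angpt1, at -0.673.

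Lists of pathway genes gave 0 calls in the comparisons without covariates. The lists were chosen for the role of their genes, but with earlier results of these data known. Of 10 further family members and partners, such as the lymphatic receptor gene Flt4 and the co-receptor gene Nrp2, 0 passed in either direction over both genotypes, with a median log2 fold change of 0.10 beside -0.01 for all genes tested. The smallest p values were those of Shb, an adaptor of VEGFR2, at 0.23 ± 0.10 and of Tie1, the partner receptor of Tie2, at 0.15 ± 0.09 (edgeR adjusted p = 0.999 for each). Of 9 HIF regulators 0 passed (median 0.07), with Epas1 at 0.13 ± 0.13 and Egln3 at 0.22 ± 0.21. Of 18 hypoxia targets 0 passed (median 0.10), with the vessel peptide gene Adm at 0.39 ± 0.15 and the glycolytic regulator gene Pfkfb4 at 0.20 ± 0.08. Of 11 tested inhibitors of vessel growth 0 passed (median 0.0032), with the matrix protease gene Adamts1 at 0.47 ± 0.16 and Sema3e at 0.38 ± 0.19. The edgeR adjusted p was 0.999 for each of these 6. The genotypes differed in sign behind 2 of these medians. HIF regulators had a median of -0.06 in WT and 0.21 in CKO mice, and hypoxia targets of -0.10 and 0.30. All genes tested had medians of -0.0080 and -0.01. Of the 18 hypoxia targets 5 lay above 0 in WT and 14 in CKO mice, and 0 passed for the interaction.

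Of 16 genes that respond to VEGF or mark sprouting vessels, 0 passed, and Rcan1 came nearest. Pgf and Angpt2 are among the 16, and the median was 0.14 with them and 0.11 over the other 14. Rcan1 encodes an inhibitor of calcineurin that VEGF signalling induces in endothelium, and that many other signals induce in muscle and elsewhere. Its log2 fold change was 0.53 ± 0.25 in WT and 1.11 ± 0.34 in CKO mice and 0.82 ± 0.21 over both genotypes (edgeR adjusted p = 0.414). Without mice 686 and 688 it was 0.89 ± 0.26 (adjusted p = 0.720), and with muscle and marrow scores in the fit it was 0.62 ± 0.12 and passed (adjusted p = 0.0442). It was the only call among the 62 genes of these lists, Pgf and Angpt2 included, over the settings tried. The sum of 20 endothelial genes, led by Vwf and Ptprb, was 825 ± 88.9 CPM without load and 899 ± 76.7 with load in WT mice. In CKO mice it was 808 ± 62.2 and 827 ± 87.3 CPM. Vwf, at 189 CPM on average, is also on the list of megakaryocyte genes, so the sum is not of vessels alone. 0 of the 20 passed in either genotype. In WT mice 18 of 20 lay above 0, with a median of 0.09, beside 8962 of all 18793 genes and a median of -0.0080 over them. In CKO mice 15 of 20 lay above 0, with a median of 0.11, beside 9070 of all genes and a median of -0.01. Some marrow lists leaned as evenly. Above 0 lay 12 of 12 megakaryocyte and 11 of 11 erythroid genes in WT mice, and 0 of 12 and 0 of 11 in CKO mice.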

How the data were processed

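The authors deposited expected counts, 1 table of whole numbers for each library. STAR, RSEM and GRCm38 are named in the submitters' processing notes; for versions, annotation and strand setting, nothing is given in the sources used here. Per the labels' protocols the kit was a stranded one, with 4 ng of RNA going in. Symbols were found for 25428 of 25471 Ensembl identifiers; positions, exon lengths and overlaps are from GENCODE M21, and promoter windows from RefSeq.

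Groups came from the labels. edgeR 4.0.16 (R 4.3.3, limma 3.58.1) was run on the rounded expected counts of all 22 libraries: filterByExpr, TMM scaling, glmQLFit with robust=TRUE and glmQLFTest, 1 mean for each group (18 residual degrees of freedom; the biological coefficient of variation was 0.271). P-values are two-sided and adjusted by Benjamini-Hochberg over 18793 genes. A standard error is the fold change divided by the square root of F; its 95% interval uses the fit's t quantile. CPM are counts scaled by TMM library sizes, and log2 CPM a prior count of 2. The code was tested on simulated data. Intervals and p-values cover the spread between the mice of a group, which are separate animals, and relative levels only. This main fit has no term for the mouse, so both limbs of a mouse enter as separate libraries.

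Limbs of 1 number come from 1 mouse, so the numbers pair the samples: their deviations from the group means correlated at -0.256 to 0.415 (median 0.189), over 0.1 in 7 of 11 mice. A fit with the mouse as block (9 residual degrees of freedom) was an alternative, as were DESeq2 1.42.0, limma voom with the mouse as random effect, median-ratio scaling, no count filter, tissue scores as covariates, only the groups compared, and leaving out mice.

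The genes, lists, tests and settings were chosen with earlier results of these data known. All 10 genes are named in each list of comparisons; of each pathway list, members past the threshold or else those 2 with the smallest p over both genotypes; for likeness, the 3 genes of highest rho, unnamed gene models left out and 1 gene not reported here. Genotype was not reassigned for any library.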

Additional observations from a re-analysis of the deposited data

Results flagged for a closer look

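Dixon's test for a single far value was applied to the log2 CPM of the 10 genes in each of the 4 groups, 40 groups in all, and 3 were marked; chance marks about 1 in 20. Vegfc in the CKO loaded library of mouse 688 stood above the other 3 libraries of its group, at 1.955 log2 CPM. Pgf in the CKO loaded library of mouse 691 stood below the other 3, at 1.289 log2 CPM. Angpt1 in the WT non-loaded library of mouse 699 stood above the other 6, at 5.419 log2 CPM. Mouse 688 is the CKO mouse whose loaded library goes against its label by Ltbp2. In mice 699 and 691 the non-loaded limbs had more marrow score than the loaded ones, by 1.39 and 1.84. The part of these in the far values was not tested.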

How the results depend on the processing

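None of the 10 genes was called under any of the 21 settings in any comparison: of 1220 values, 1098 kept their sign, 122 turned and 0 changed call, and the smallest adjusted p was 0.119, for the genotype comparison in loaded ulnae. Values near 0 in WT mice turned most. With the mouse as replicate block the WT values were 0.044 for Vegfb, 0.0077 for Vegfc and 0.0016 for Nrp1, and with limma voom and the mouse as random effect 0.038 for Vegfb and 0.0059 for Nrp1; the block changed no call of the 10 genes. With muscle and marrow scores the WT values were 0.027 for Vegfb, 0.046 for Vegfc and 0.048 for Nrp1, the CKO values 0.015 for Vegfc, -0.028 for Flt1 and -0.20 for Tek, and the interactions -0.015 for Vegfa, -0.14 for Flt1 and 0.038 for Angpt1. With the endothelial score the WT values were -0.035 for Pgf, -0.089 for Kdr, -0.13 for Flt1, 0.0070 for Angpt1 and -0.12 for Tek, and the CKO values -0.0039 for Kdr and -0.087 for Tek. Tek in WT was -0.0053 with median-ratio scaling and -0.0055 in DESeq2. Without mice 686 and 688 the WT values were -0.078 for Pgf, -0.0083 for Flt1, -0.00021 for Tek and 0.0011 for Nrp1. Without mice 691 and 699 they were -0.12 for Pgf, -0.072 for Kdr, -0.11 for Flt1, 0.013 for Angpt1 and -0.12 for Tek, and in CKO 0.093 for Vegfc and -0.012 for Tek. Leaving out each mouse in turn, the WT values ran from -0.10 to 0.13 for Vegfb, -0.096 to 0.12 for Vegfc, -0.099 to 0.20 for Pgf, -0.041 to 0.071 for Kdr, -0.072 to 0.17 for Flt1, -0.10 to 0.044 for Angpt1, -0.086 to 0.11 for Tek and -0.041 to 0.041 for Nrp1, and the CKO values from -0.25 to 0.083 for Vegfc and -0.029 to 0.18 for Tek.

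The number of genes called over the whole table moved more. For loading in WT it was 1, against 11 in DESeq2, 2 with the block, 5 with muscle and marrow scores, 2 with the endothelial score, 0 without mice 691 and 699, and 0 to 2 leaving out a mouse. For loading in CKO it was 3, against 22 in DESeq2, 5 with the block, 1 with muscle and marrow scores, 0 with only the groups compared, 0 without mice 686 and 688, 1 without 691 and 699, and 0 to 5 leaving out a mouse. Over both genotypes it was 17, against 33 in DESeq2, 11 with the block and 10 to 22 leaving out a mouse. Between genotypes it was 0 in non-loaded ulnae, against 2 in DESeq2, 1 with only the groups compared, 1 without mice 686 and 688 and 0 to 1 leaving out a mouse, and 0 in loaded ulnae, against 1 without mice 686 and 688. The cause of these changes was not tested. Pgf, Vegfc and Angpt2 had the fewest counts of the 10 genes, 35 to 243 per library.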
